A study of Homo sapiens with 4 samples.

Results

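Type I and type II interferon signalling share a short chain of proteins, and 9 genes of this chain were followed in HCCLM3, a human hepatoma cell line, with and without a short hairpin RNA against KIAA1429. The 9 genes encode receptor chains (IFNAR1, IFNAR2, IFNGR1 and IFNGR2), receptor-bound kinases (JAK1 and TYK2), and nuclear factors of the pathway (STAT2, IRF9 and IRF1). They were taken by gene symbol and were 9 of the 13036 genes, and 31 of the 38510 transcripts, for which values were listed. RNA was sequenced from 2 samples infected with lentivirus carrying a control hairpin (shCtrl) and 2 infected with lentivirus carrying a hairpin against KIAA1429 (shKIAA1429). KIAA1429, listed as VIRMA, belongs to the methyltransferase that places N6-methyladenosine (m6A) in RNA. All 4 samples therefore carried a lentivirus and a hairpin, 1 hairpin design per group, no uninfected cells were among them, and no interferon treatment is described. Whether replicates came from separate infections is not stated, so the p-values measure the spread between these samples, which may be technical.

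Type I interferons bind a receptor made of IFNAR1 and IFNAR2, whose inner tails hold the kinases TYK2 and JAK1. These phosphorylate STAT proteins, and STAT2 joins IRF9 in ISGF3, a complex that binds the interferon-stimulated response element of many antiviral genes. Interferon-gamma binds IFNGR1 and IFNGR2, which work through JAK1 and JAK2. That response acts through the gamma-activated site, and IRF1 is a classical early target that itself activates antigen presentation genes.

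The gamma-activated site and the response element were searched in the promoters of these genes, because IRF1 was the gene whose groups did not overlap and IRF9 varied most. RefSeq promoter sequences (250 bases before to 50 after the start, GRCh38.p14) were matched for 8 of the 9 genes, with 12 entries. The gamma-activated site, spelled TTCNNNGAA and searched on both strands, was found in 2 of the 12 entries and in 7.66% of all 35116 promoters. The sites, in capitals within 30 bases of their surroundings, lay 124 bases before the start of IRF1 (chr5:132490878-132490907, minus strand) and 63 bases before the start of IRF9 (chr14:24161192-24161221, plus strand):
IRF1: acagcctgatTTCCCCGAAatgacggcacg
IRF9: accacgtgatTTCTGGGAAaaggccctccc
The response element, spelled GAAANNGAAA and searched likewise, was found in 0 of the 12 entries and in 3.57% of all promoters. The starts used here are RefSeq starts on GRCh38.p14 and were not matched to the starts of the listed transcripts. A site before such a start may therefore lie inside a listed transcript. A match describes letters in a window and is not evidence of binding in these cells.

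Values are FPKM, fragment numbers divided by transcript length and by the library's mapped fragments. This allows for unlike lengths of genes and unlike library sizes. Levels can still move between samples with a few abundant RNAs, and the fit described below applied no further scaling. A gene's level is the sum of its listed transcripts. Fold changes are shKIAA1429 over shCtrl, as differences of log2(FPKM + 1), a scale that understates the change of low genes, and were tested with limma across 11657 genes with at least 1 FPKM in at least 2 samples. A gene was called when its Benjamini-Hochberg adjusted p was under 0.05 and its absolute log2 fold change over 1. Neither any of the 9 genes nor any other gene was called (0.0% of the genes tested). At an unadjusted p under 0.05, with group as the only term, stood 0 of the 9 and 5.63% of all genes tested (656 genes). The adjusted p of the 9 genes ran from 0.901 to 0.999 by limma.

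In all libraries the targeted gene was measurable. VIRMA had 9.37 and 14.1 FPKM in the controls (replicate 1 first, here and below) and 6.90 and 8.52 after knockdown. Both knockdown values were below both controls, the log2 fold change being -0.53 (SE 0.24; adjusted p 0.917 by limma). Summed FPKM per library ran from 370253 to 390224, and read depth is unknown, which leaves single values without a counting error. Of 16 hepatocyte markers 3 were listed (KRT8, KRT18 and SERPINA1), while ALB and AFP were not among the genes analysed here. Of 5 endothelial markers 0 were listed, and of 9 immune cell markers 2 (CD68 and CD14), with a summed level of 48.4 to 56.3 FPKM in shCtrl and 46.7 to 55.5 in shKIAA1429. Of 6 fibroblast markers 5 were listed, with a sum of 71.9 to 79.6 and 76.2 to 76.8 FPKM that was mostly COL3A1 (55.8 to 63.6). LUM, a collagen-binding proteoglycan on that list, was at 7.92 and 7.04 FPKM in shCtrl and 2.73 and 2.88 in shKIAA1429, with a log2 fold change of -1.16 and an adjusted p of 0.342 by limma. Of the 4 fibroblast markers tested, LUM was the only 1 with a log2 fold change below 0. The log2 fold change was above 0 for 3, COL3A1 among them at 0.10. The part of LUM in the results below was not tested. In bulk RNA, fewer cells of a kind and less RNA per cell cannot be told apart.

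**Figure D1:**
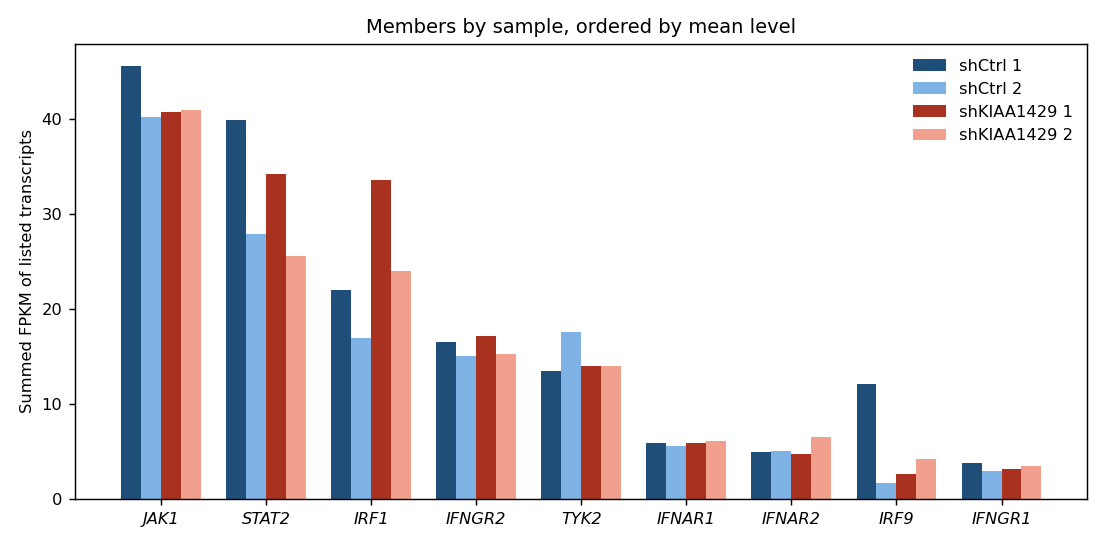
Summed FPKM of the 9 genes in each sample (bars start at 0; 2 shCtrl samples in blue, 2 shKIAA1429 samples in red), ordered by mean level. JAK1 is at 40.3 to 45.7 FPKM in all samples, both IRF1 bars of shKIAA1429 are above both of shCtrl, and the IRF9 bar of shCtrl replicate 1 stands above its other 3.

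The chain was expressed at unequal levels. JAK1 was highest, and its lowest sample was above the highest sample of STAT2, which came next. The ranges of STAT2 and IRF1 overlapped, as did those of IRF1, IFNGR2 and TYK2. IFNAR1, IFNAR2, IRF9 and IFNGR1 came last, and neighbours in that order overlapped. Of the 9 genes 6 were over 5 FPKM in every sample, and the remaining 3 were IFNAR2, IRF9 and IFNGR1.

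Positions of genes are those of the files, on GRCh37. Of the receptor chains, IFNGR2 (ENSG00000159128.14_3, chr21:34775202-34809828, plus strand), the signalling chain of the interferon-gamma receptor, was the most abundant. Its level was 16.5 and 15.0 FPKM in shCtrl, against 17.2 and 15.3 in shKIAA1429. The groups overlapped, with replicate 1 higher than replicate 2 in each, and the log2 fold change was 0.04 (SE 0.15, 95% interval -0.34 to 0.42). IFNGR1 (ENSG00000027697.13_3, chr6:137518621-137540586, minus strand), the ligand-binding chain of the same receptor, had a single listed transcript, IFNGR1-201. The level of IFNGR1 was 3.82 and 2.90 FPKM in shCtrl and 3.17 and 3.47 in shKIAA1429. Here too the groups overlapped, with both knockdown values between the controls, and the interval of the log2 fold change was -0.47 to 0.46. The partner chains of the interferon-gamma receptor were thus listed at unequal RNA levels, IFNGR2 above IFNGR1 in every sample.

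The chains of the type I receptor were closer to each other. IFNAR1 (ENSG00000142166.12_3, chr21:34697209-34732168, plus strand), with a single listed transcript, was at 5.91 and 5.58 FPKM in shCtrl and 5.89 and 6.14 in shKIAA1429. These 4 values spanned a ratio of 1.10 from lowest to highest, and 95.5% of all genes tested spanned a larger one, with a median of 1.41. The log2 fold change was 0.06 (SE 0.14, 95% interval -0.32 to 0.43). IFNAR2 (ENSG00000159110.19_3, chr21:34602206-34637980, plus strand), which binds interferon with the higher affinity, was at 4.98 and 5.05 FPKM in shCtrl and 4.73 and 6.52 in shKIAA1429. The knockdown samples lay on both sides of the controls, and the log2 fold change was 0.13 (SE 0.19, 95% interval -0.36 to 0.62). Without shKIAA1429 replicate 2 it was -0.07. The leading transcript, IFNAR2-202, held 33.4 to 45.3% of the gene, and IFNAR2-205 held 22.2 to 31.5%. The noncoding IFNAR2-208 was at 0.389 FPKM and listed at 0 in shCtrl, and at 0.281 and 1.22 in shKIAA1429. Over coding transcripts alone the log2 fold change of IFNAR2 was 0.01. The untested IFNAR2-204 was at 0.648 and 0.676 FPKM in shCtrl and 0.927 and 1.32 in shKIAA1429, and IFNAR2-201 at 0.389 and 0.773 against 0.238 and 0.359. Part of the IFNAR2 gene is shared with a listed read-through gene, AP000295.1 (GRCh37 chr21:34619079-34655517, plus strand), which was at 0.322 and 3.22 FPKM in shCtrl and 0.610 and 0.896 in shKIAA1429, so reads may have been divided between them.

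Both kinases were well expressed. JAK1 (ENSG00000162434.11_2, chr1:65298912-65432187, minus strand), which serves both receptors, was at 45.7 and 40.3 FPKM in shCtrl and 40.8 and 41.0 in shKIAA1429. Its means were 43.0 ± 3.80 and 40.9 ± 0.147 FPKM (SD, n = 2 each), and both knockdown values lay between the controls. The log2 fold change was -0.07 (SE 0.13, 95% interval -0.41 to 0.28), and 91.5% of genes tested spanned a larger ratio than the 1.13 of JAK1. A single coding transcript, JAK1-201, held 96.9 to 98.5% of this level, and the noncoding JAK1-204 and JAK1-206 stayed under 1 FPKM in every sample. The gene overlaps the end of RAVER2 on the opposite strand.

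TYK2 (ENSG00000105397.13_3, chr19:10461205-10491352, minus strand), the kinase bound to IFNAR1, was at 13.5 and 17.6 FPKM in shCtrl and 14.1 and 14.0 in shKIAA1429. The knockdown samples again lay between the controls, with a log2 fold change of -0.13 (SE 0.18, 95% interval -0.58 to 0.33) that became 0.05 without shCtrl replicate 2. The sum varied less than its parts. TYK2-205, a coding transcript, was at 8.23 and 5.18 FPKM in shCtrl and 8.77 and 6.85 in shKIAA1429. TYK2-210 was at 1.26 and 8.04 in shCtrl and 1.14 and 6.17 in shKIAA1429, higher in replicate 2 of each group. The files list TYK2-210 as coding, whereas GENCODE 44 lists that identifier as a retained intron. TYK2-202 was at 2.16 FPKM in shCtrl replicate 1 and listed at 0 in the other samples. TYK2-201 was at 1.96 FPKM in shKIAA1429 replicate 1 and at 0.00788 to 0.172 in the other samples. The untested TYK2-216 was at 0.222 and 0.498 FPKM in shCtrl and 0.925 and 0.996 in shKIAA1429. It is coding in the files, whereas GENCODE 44 lists that identifier under nonsense-mediated decay. TYK2-207 was at 1.59 and 3.72 FPKM in shCtrl. Its knockdown values were 1.26 and a listed 0, and it was the only transcript of the 19 tested whose knockdown values were both below the controls (16.8% of all transcripts tested).

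STAT2 (ENSG00000170581.13_3, chr12:56735381-56753910, minus strand), the subunit of ISGF3 that carries the activation domain, was at 39.9 and 27.9 FPKM in shCtrl and 34.2 and 25.6 in shKIAA1429. Means were 33.9 ± 8.49 and 29.9 ± 6.12 FPKM (SD, n = 2 each), and the groups overlapped, with replicate 1 higher in each. The log2 fold change was -0.17 (SE 0.24, 95% interval -0.79 to 0.46), and it became 0.08 without shCtrl replicate 1 and 0.03 without shKIAA1429 replicate 2. More than any other member, STAT2 was listed as noncoding RNA. STAT2-207, a transcript with no coding sequence assigned, was at 21.2 and 16.1 FPKM in shCtrl and 20.4 and 14.3 in shKIAA1429, which was 53.0 to 59.5% of the gene. Its 11 exons shared 54.9% of their bases with the coding transcript STAT2-210, and a stretch of 1113 bases (GRCh37 chr12:56735381-56736493) lay beyond all other listed STAT2 transcripts. The coding transcripts alone summed to 17.7 and 10.4 FPKM in shCtrl and 12.6 and 10.0 in shKIAA1429. STAT2-210 was at 15.4 FPKM in shCtrl replicate 1 and at 4.02, 6.08 and 6.30 in the other samples. The highest coding level was thus in 1 control sample. The other control lay between the knockdown samples in the coding sum and was the lowest sample in STAT2-210. The log2 fold change of the coding sum was -0.25. STAT2-201 was at 1.18 and 2.73 FPKM in shCtrl and 4.79 and 2.55 in shKIAA1429, and STAT2-202 at 1.21 and 3.61 against 1.69 and 1.19, both with overlapping groups. STAT2-202 is coding in the files and was counted in the coding sum. The GENCODE release named above lists that identifier under nonsense-mediated decay instead. STAT2-202 was highest in shCtrl replicate 2, and a coding sum without it was not computed. The place of that control between the knockdown samples, and the -0.25, are therefore given for the types in the files only. The noncoding STAT2-208 and STAT2-211 stayed under 1 FPKM.

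IRF9 (ENSG00000213928.8_3, chr14:24630262-24635774, plus strand), the DNA-binding subunit of ISGF3, varied most. Control levels were 12.1 and 1.63 FPKM, and knockdown levels 2.63 and 4.19. The controls were the highest and the lowest of the 4 samples, so the spread within shCtrl (6.85 ± 7.38, SD, n = 2) exceeded the difference from shKIAA1429 (3.41 ± 1.10). The log2 fold change of IRF9 was -0.43 (SE 0.77, 95% interval -2.44 to 1.57). Leaving out shCtrl replicate 2 gave -1.59, and leaving out shCtrl replicate 1 gave 0.72. The ratio of highest to lowest, 7.39, was exceeded by 1.13% of genes tested. Nearly all of this spread was in a single transcript. IRF9-202 was at 10.8 and 0.246 FPKM in shCtrl and 0.322 and 3.63 in shKIAA1429, and IRF9-201 was at 1.30 and 1.39 in shCtrl and 2.31 and 0.557 in shKIAA1429. IRF9-202 held 89.3 and 86.7% of the gene in shCtrl replicate 1 and shKIAA1429 replicate 2, against 15.1 and 12.2% in the other control and the other knockdown sample. The leading transcript thus differed between replicates within both groups. In GENCODE 44 the transcripts share all but 20 bases of IRF9-201, while IRF9-202 has an exon of 342 bases of its own (GRCh37 chr14:24633823-24634164). How the authors divided reads between them is not stated in the sources used here.

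**Figure D2:**
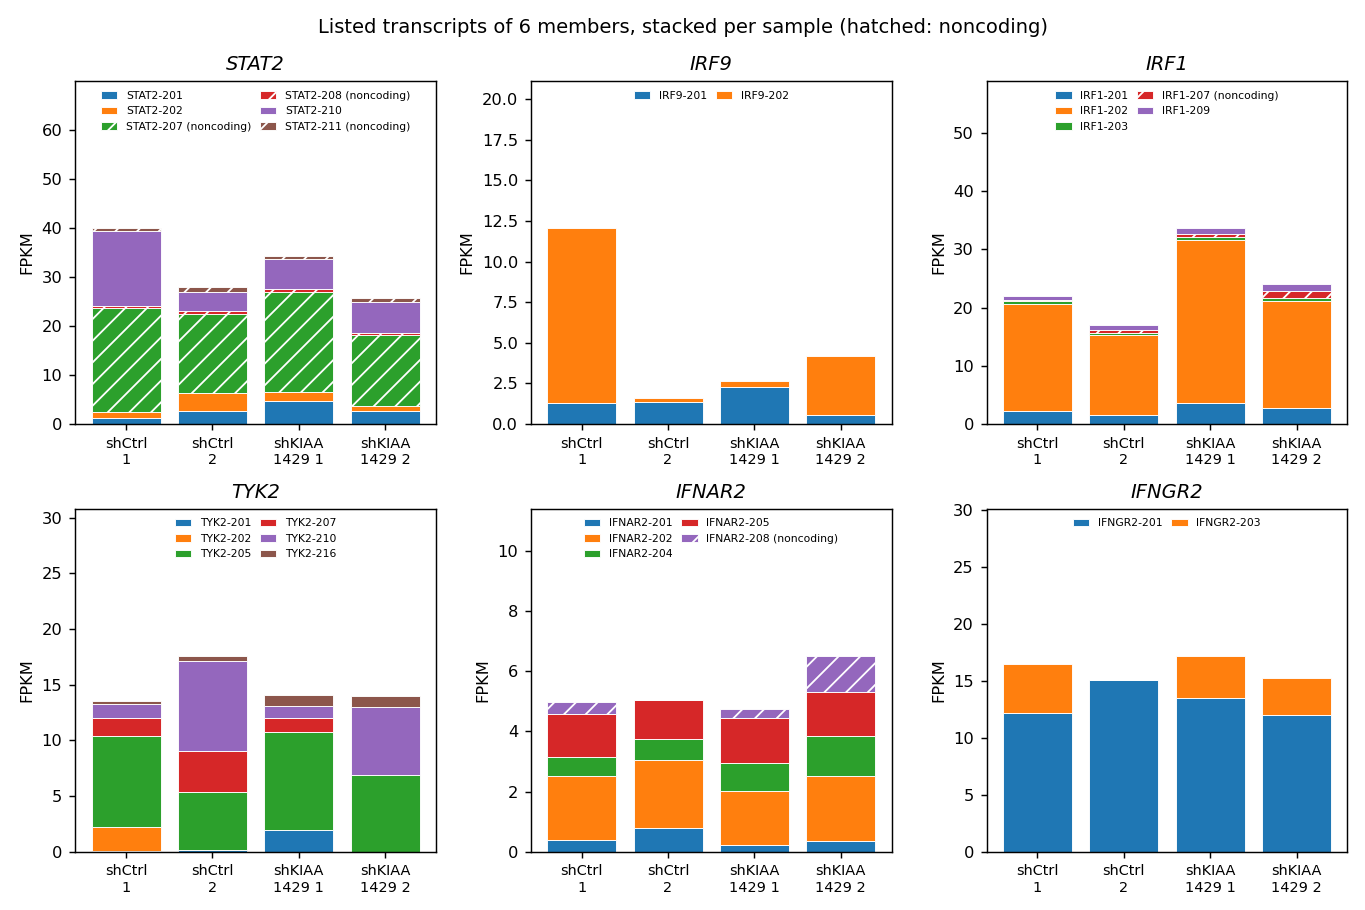
Listed transcripts of 6 genes stacked per sample in FPKM (vertical axis from 0, its scale differs between panels; hatched bars are noncoding in the files). The noncoding STAT2-207 holds 53.0 to 59.5% of STAT2 in every sample, IRF9-202 holds 89.3 and 86.7% of IRF9 in 1 sample of each group, and IRF1-202 holds 76.8 to 83.7% of IRF1.

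IRF1 (ENSG00000125347.13_3, chr5:131817301-131826490, minus strand) was the 1 gene of the 9 whose knockdown values were both above both controls, which held for 16.9% of all genes tested. No gene of the 9 had both below (16.7% of genes tested). IRF1 was at 22.0 and 16.9 FPKM in shCtrl and 33.6 and 24.0 in shKIAA1429. Means were 19.5 ± 3.60 and 28.8 ± 6.80 FPKM (SD, n = 2 each), and the knockdown samples differed from each other by more than the lower of them differed from the higher control. The log2 fold change was 0.53 (SE 0.23, 95% interval -0.06 to 1.13), with an unadjusted p of 0.068 and an adjusted p of 0.901 by limma. An exact two-sided permutation test gave 0.33, the smallest p that 2 samples against 2 can give. Leaving out each sample in turn gave 0.30 to 0.77. IRF1-202, the leading coding transcript, was at 18.5 and 13.8 FPKM in shCtrl and 27.9 and 18.5 in shKIAA1429, the last of these just under shCtrl replicate 1. IRF1-201, with the same coding length, was at 2.17 and 1.51 FPKM in shCtrl and 3.64 and 2.69 in shKIAA1429, with an adjusted p of 0.923 by limma. IRF1-203 was at 0.411 and 0.359 against 0.604 and 0.436, and the noncoding IRF1-207 at 0.262 and 0.409 against 0.422 and 1.24, both untested. IRF1-209, a short coding transcript, was at 0.735 and 0.850 in shCtrl, against 1.05 and 1.21 in shKIAA1429.

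Transcripts were tested one by one as well. Of the 31 listed, 19 passed the filter of 1 FPKM in at least 2 samples. The remaining 12 were not tested, and none of them exceeded the 2.16 FPKM of TYK2-202. Of the 19 tested, 0 were called, as for all 24996 transcripts tested (0.0%). An unadjusted p under 0.05 by limma was found for 0 of the 19 and for 1570 of the 24996. Both knockdown values were above both controls for 3 (IRF1-201, IRF1-209 and IFNAR2-205), against 16.7% of all transcripts tested. IFNAR2-205 was at 1.43 and 1.31 FPKM in shCtrl and 1.49 and 1.45 in shKIAA1429. IFNGR2-203 was listed at 0 in shCtrl replicate 2 and was at 4.26, 3.69 and 3.31 FPKM in the other samples. IFNGR2-201 was highest, at 15.0 FPKM, in the sample where IFNGR2-203 was at 0, and 12.0 to 13.5 elsewhere. In GENCODE 44, 52 bases of IFNGR2-203 lie outside IFNGR2-201. Only 14 of the 31 transcripts had the same start and end in the files and in that annotation, so these structures may differ from those used for the values.

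**Figure D3:**
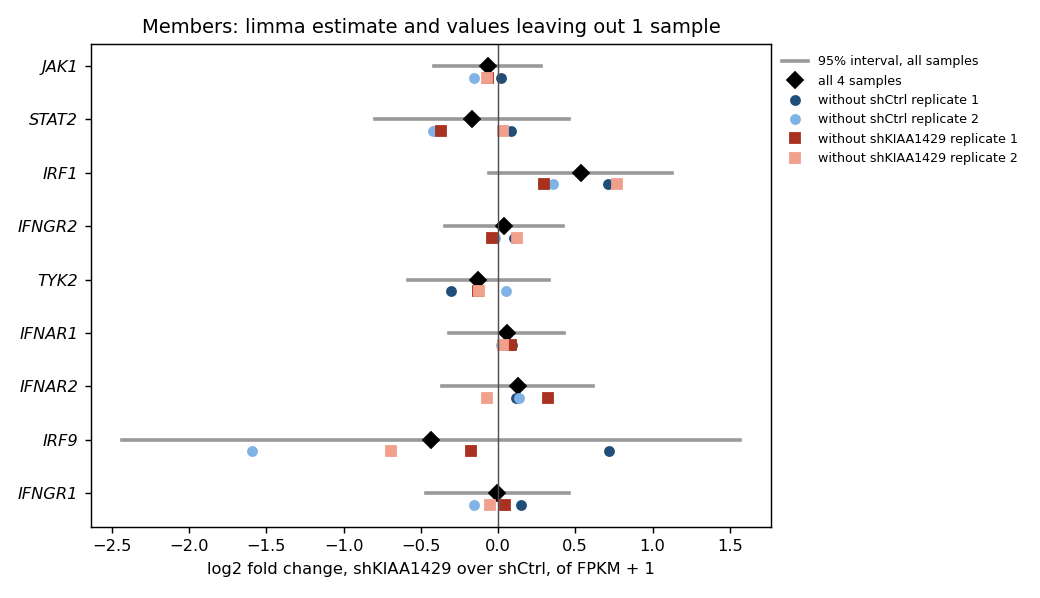
Log2 fold change of FPKM + 1, shKIAA1429 over shCtrl, for the 9 genes (diamond: all 4 samples; grey line: 95% limma interval; points: value with 1 sample left out). All 9 intervals cross 0, IRF9 has the widest at -2.44 to 1.57, and the points of IRF1 and IFNAR1 are all above 0.

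For 7 of the 9 genes the 95% interval of the log2 fold change lay within 1 of 0, that is, within a doubling or halving of FPKM + 1. The exceptions were IRF1 (upper bound 1.13) and IRF9. A p that misses the threshold does not show that levels were equal, and differences inside these intervals remain possible.

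The m6A writers act mostly at a core of GGAC and like sequences, so its density was counted in the most abundant transcript of each gene from GENCODE 44 sequences. Over 37441 listed transcripts with a sequence the median was 3.98 per kb of transcript, with quartiles of 2.58 and 5.87. TYK2-205 had 7.54 and IRF1-202 had 6.31, both above the upper quartile. IRF9-202 had 5.54 and STAT2-207 had 4.58. The receptor chains ran from 2.80 (IFNAR1-201) to 4.42 (IFNAR2-202), and JAK1-201 had 3.93. These are counts of letters, and m6A itself was not analysed here.

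Other genes of the pathway were examined next. JAK2, the kinase of IFNGR2, was low at 1.62 and 1.46 FPKM in shCtrl and 1.60 and 1.56 in shKIAA1429. Its groups overlapped, and the log2 fold change was 0.02. Among the 9 genes, STAT2, IRF9, JAK1 and IFNGR1 were highest in shCtrl replicate 1, and the remaining genes were highest in other samples. The share of all genes tested that were highest in shCtrl replicate 1 was not counted, so this does not set the members apart.

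Other receptors, kinases and STATs were represented by 11 of 14 genes of the list, all tested. Called genes numbered 0 by limma, and the median log2 fold change was 0.02, against -0.01 over all genes tested. An unadjusted p under 0.05 was given to 2 of the 11 (both lower), and to 5.63% of all genes tested. STAT3, the main transducer of interleukin-6 signals, was the highest, at 70.4 and 55.9 FPKM in shCtrl and 50.3 and 56.4 in shKIAA1429. OSMR, a receptor chain for oncostatin M, and STAT6, the transducer of interleukin-4 signals, overlapped between groups as well. Interferon ligands were represented by 0 of 10 genes.

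Inhibitors of the pathway were represented by 19 of 21 genes, with a median log2 fold change of 0.00. Of these 0 were called. An unadjusted p under 0.05 was found for 2 of the 19, both lower, and for 5.63% of all genes tested. PTPN1, a phosphatase that acts on JAK2 and TYK2, was at 48.7 and 49.6 FPKM in shCtrl and 33.5 and 36.5 in shKIAA1429. Its groups did not overlap, and the adjusted p was 0.730 by limma. SOCS3, a feedback inhibitor of JAK kinases, was at 29.7 and 31.1 FPKM in shCtrl and 30.3 and 26.8 in shKIAA1429. Groups did not overlap for 5 inhibitors that were higher and 4 that were lower, 26.3 and 21.1% against 16.9 and 16.7% of all genes tested.

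Of the remaining interferon regulatory factors and their cofactors 6 of 9 were listed and 5 tested, with 0 called. At an unadjusted p under 0.05 stood 0 of the 5 and 5.63% of all genes tested. Groups of these factors did not overlap in any of the 5, with 4 higher and 1 lower, against 16.9 and 16.7% of all genes tested. IRF3, the factor that switches on interferon genes, was at 11.3 and 14.4 FPKM in shCtrl and 14.5 and 18.1 in shKIAA1429. IRF2BP2, a cofactor of IRF2, was at 32.5 and 24.0 FPKM in shCtrl and 36.3 and 32.6 in shKIAA1429, the last of these just above shCtrl replicate 1. The lower gene was IRF7, the interferon-induced amplifier of type I interferon production, at 9.14 and 4.06 FPKM in shCtrl and 3.78 and 2.08 in shKIAA1429, with a log2 fold change of -0.90 and an adjusted p of 0.917 by limma.

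Of the target genes of ISGF3, 40 of 45 were listed and 39 tested. The median log2 fold change was -0.36, with 37 of the 39 below 0, where 6045 of the 11657 genes tested were below 0. Called genes numbered 0 by limma, the lowest adjusted p being 0.432. An unadjusted p under 0.05 was found for 9 of the 39, all lower, and for 5.63% of all genes tested. Both knockdown values were below both controls for 16 targets (41.0%, against 16.7% of all genes tested) and above for 1. The controls differed from each other in these genes. Leaving out shCtrl replicate 1 gave a median log2 fold change of -0.15, and leaving out replicate 2 gave -0.60. The median deviation of the 39 targets from their own mean over the 4 samples, in log2(FPKM + 1), was 0.41 and -0.06 in shCtrl and -0.03 and -0.30 in shKIAA1429. Set against shCtrl replicate 1 alone, 36 of the 39 were below in both knockdown samples (92.3%, against 32.3% of all genes). Set against shCtrl replicate 2 alone, 16 were (41.0%, against 35.0% of all genes). The members with the highest levels were IFITM3 and IFITM2, restriction factors of virus entry whose near-identical sequences make their separate values uncertain, with overlapping groups. IFI6, an interferon-induced mitochondrial protein, was at 95.5 and 68.7 FPKM in shCtrl and 56.0 and 25.8 in shKIAA1429.

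Of the interferon-gamma and IRF1 targets, 24 of 34 were listed and all were tested. The median log2 fold change was 0.04, with 16 above and 8 below 0. Called genes numbered 0 by limma. An unadjusted p under 0.05 was given to 1 higher and 1 lower gene, and to 5.63% of all genes tested. Both knockdown values were above both controls for 6 (25%) and below for 3 (12.5%), against 16.9 and 16.7% of all genes tested. This median became 0.18 when shCtrl replicate 1 was left out and -0.10 when replicate 2 was. CD74, the invariant chain of class II antigen presentation, was at 126.9 and 112.8 FPKM in shCtrl and 196.8 and 151.9 in shKIAA1429, with an adjusted p of 0.822 by limma. TAPBP, which loads peptides onto class I molecules, was at 71.8 and 63.3 FPKM in shCtrl and 81.6 and 74.9 in shKIAA1429. The 3 lower genes act in class I antigen presentation, with log2 fold changes of -0.85 to -0.32, and among them B2M, the light chain of class I molecules, was at 20.9 and 14.6 FPKM in shCtrl and 14.02 and 8.07 in shKIAA1429. HLA-E overlapped between groups, and the sequence it shares with like genes makes its value uncertain.

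**Figure D4:**
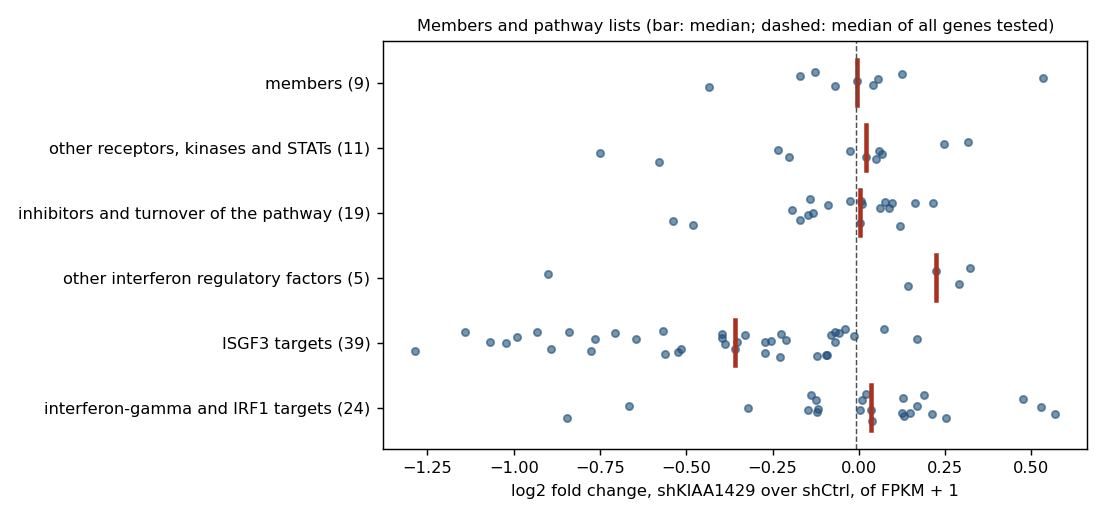
Log2 fold change of FPKM + 1, shKIAA1429 over shCtrl, for the 9 genes and 5 lists of pathway genes (point: 1 gene tested; red bar: median of the list; dashed line: median of all genes tested, -0.01). The ISGF3 targets have a median of -0.36 with 37 of 39 points below 0, and the other 4 lists have medians between 0.00 and 0.22.

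Among targets with a mean of at least 5 FPKM (46 genes of both target lists), the pattern over the 4 samples most like each nuclear factor was sought. Likeness was the root mean square difference of log2(FPKM + 1) after each gene was centred on its own mean, with no test. How many of all genes tested lay as near was not counted, so a small difference over 4 samples does not set a target apart. SP110, an interferon-induced nuclear body protein, was nearest to STAT2, at a difference of 0.0231. SP110 was at 15.9 and 11.0 FPKM in shCtrl and 13.0 and 9.78 in shKIAA1429. UBE2L6, the conjugating enzyme for ISG15, and TRIM25, a ubiquitin ligase of RNA sensing, followed at 0.0648 and 0.0708. CD74 was nearest to IRF1, at 0.0761, before PSME1 (0.197) and TAPBP (0.213). The measure is not scaled, so it grows with a factor's own spread, which was widest for IRF9. Differences can therefore not be compared between factors. Nearest to IRF9 was IFIH1, an RNA sensor, at 0.617, and then IFIT3 at 0.619 and IFIT2 at 0.664. IFIH1 was at 7.99 and 4.37 FPKM in shCtrl and 5.0 and 4.09 in shKIAA1429.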

How the data were processed

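HCCLM3 cells were compared as 2 shCtrl and 2 shKIAA1429 samples, grouped by their titles. By the study's methods, paired reads were aligned with TopHat; the labels name hg19 and Bowtie2 2.1.0. The deposited values are FPKM per annotated transcript, normalized by the authors to transcript length and mapped total with a tool not given in the sources used here. FPKM can move with a few abundant RNAs, and fragment counts could not be recovered, so depth is unknown and no count test was run. The 9 genes and all lists were chosen with earlier results of these data known. Named were all 9 genes and their transcripts, of each list up to 4 genes with the highest mean FPKM, JAK2, VIRMA and the 3 most alike targets per factor; AP000295.1, RAVER2, KRT8, KRT18, SERPINA1, ALB, AFP, CD68, CD14, COL3A1 and LUM were added as overlapping genes and markers, the last 2, IRF7 and B2M after their values were seen. Some genes that this rule names are not reported here. Transcripts were summed per gene, genes with at least 1 FPKM in at least 2 samples kept, and log2(FPKM + 1) tested with limma 3.58.1 in R 4.3.3 (eBayes with trend, group only), adjusted over all genes by the Benjamini-Hochberg method. The script was tested on simulated data. Motifs and structures came from RefSeq (GRCh38.p14) and GENCODE 44 on GRCh37, and 30 of 31 transcripts matched by identifier. Alternatives were upper quartile scaling, other filters, a pseudocount of 0.1, coding transcripts only, a robust variance estimate, either threshold alone, the replicate block and leaving out each sample. Counts of ISGF3 targets without each control were added after seeing the data. Plots used Python 3.11.15 and matplotlib 3.10.9.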

Additional observations from a re-analysis of the deposited data

How the results depend on the processing

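Read depth is unknown, and each group had 2 samples. No gene passed under the scaling, filter, pseudocount, coding-only or robust alternatives, or by adjusted p alone; leaving out 1 sample gave 0 to 1 (1 without shCtrl replicate 1), and the fold threshold alone gave 125. The numbers of replicates mark no stated shared batch. Over genes, the deviations of replicate 1 from its group mean correlated at 0.32 between the groups. With the replicate block 0 genes passed, and IRF1 was at 0.53 (SE 0.09, against 0.23 by group alone) with an adjusted p of 0.371 by limma. An unadjusted p under 0.05 by limma was given to 1269 genes with this block and to 656 by group alone. The 0 of the 9 given above is for group alone. Of 63 alternatives for the 9 genes that kept all samples, 62 kept direction and side of the threshold, and IFNGR1 turned from -0.0045 to 0.0086 with upper quartile scaling. In this balanced design the filters, the replicate block and the robust estimate cannot alter a gene's fold change. Coding-only sums cannot alter it where all listed transcripts are coding. For these alternatives the kept direction was fixed in advance. Log2 fold changes with 1 sample left out ran from -0.16 to 0.020 for JAK1, -0.42 to 0.081 for STAT2, 0.30 to 0.77 for IRF1, -0.040 to 0.12 for IFNGR2, -0.31 to 0.052 for TYK2, 0.021 to 0.092 for IFNAR1, -0.069 to 0.32 for IFNAR2, -1.59 to 0.72 for IRF9 and -0.16 to 0.15 for IFNGR1. Direction thus turned for 7 genes, IFNAR1 and IRF1 being the exceptions, and no adjusted p fell below 0.694 by limma, in fits that take the lone sample of 1 group to vary like the other group. Medians of lists ran from -0.037 to 0.024 for inhibitors (-0.037 without shCtrl replicate 1), and from 0.11 to 0.24 for other interferon regulatory factors (0.11 without shCtrl replicate 2, 0.16 without shKIAA1429 replicate 1). They ran from -0.12 to 0.067 for other receptors, kinases and STATs, -0.60 to -0.15 for ISGF3 targets and -0.10 to 0.18 for interferon-gamma and IRF1 targets. ISGF3 targets below shCtrl numbered 16 to 36 (36 without shCtrl replicate 2). Causes were not tested.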
